A study of Mus musculus with 16 samples.

Results

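Calbindin-positive cells of the late distal convoluted tubule and connecting tubule were examined in mouse kidney by single-cell RNA sequencing. A cell was counted as a member, and is called a Calb1 cell here, when Calb1 made up at least 0.2% of its unique molecular identifiers (UMIs, each a counted RNA molecule) with at least 4 Calb1 UMIs, and when Slc12a1 and Umod, which mark the thick ascending limb, together made up under 1%. The rule took 627 of 24975 kept cells. The cells were chosen by their measured values of Calb1, Slc12a1 and Umod, so these genes are described without a test.

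The 4 libraries came from C57BL/6 kidneys, 2 from wild type mice and 2 from Gulo-/- mice. Gulo encodes L-gulonolactone oxidase, which makes the last step of vitamin C synthesis, so Gulo-/- mice depend on vitamin C from the diet. The labels give no age, sex or vitamin C supply, and the title describes vitamin C deficiency. Kidneys were chopped and mixed before they were split between assays, and the labels do not say how many animals entered a library. The p-values therefore measure the spread between these libraries only.

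The late distal convoluted tubule and the connecting tubule link the salt-reabsorbing early distal tubule to the collecting duct. Their cells recover filtered calcium: it enters through the channel TRPV5, is carried through the cytoplasm by calbindin-D28k (Calb1) and calbindin-D9k (S100g), and leaves through the sodium-calcium exchanger (Slc8a1) and calcium pumps. They also hold the aldosterone-sensitive sodium channel ENaC and the enzyme 11-beta-hydroxysteroid dehydrogenase type 2 (Hsd11b2), which keeps cortisol-like hormones off the mineralocorticoid receptor. Towards the collecting duct the thiazide-sensitive cotransporter (Slc12a3) gives way to the water channel aquaporin-2 (Aqp2).

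Grem1, Car15 and Aqp2, all higher in Gulo-/- Calb1 cells, are shown by the 250 bases before their RefSeq start in GRCm38.p6. In the Gulo-/- libraries Grem1 and Car15 were highest in the Aqp2-high cells described below. Those cells are chosen by Aqp2 itself. Capitals mark matches, on either strand, to TGACG (core of the cyclic AMP element), AGATAA (bound by factors such as Gata3), TGTTCT (core of a steroid receptor site), TATAAA (the core promoter box) and GGGCGG (Sp1). The Aqp2 window is chr15:99578806-99579055 on the plus strand, that of Car15 is chr16:17838187-17838436 on the minus strand, and that of Grem1 is chr2:113758649-113758898 on the minus strand.
Aqp2: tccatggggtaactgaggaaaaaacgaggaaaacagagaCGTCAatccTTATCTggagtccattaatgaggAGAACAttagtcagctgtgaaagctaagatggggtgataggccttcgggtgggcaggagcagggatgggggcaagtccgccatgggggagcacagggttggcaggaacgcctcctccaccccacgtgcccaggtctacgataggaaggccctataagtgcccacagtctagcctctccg
Car15: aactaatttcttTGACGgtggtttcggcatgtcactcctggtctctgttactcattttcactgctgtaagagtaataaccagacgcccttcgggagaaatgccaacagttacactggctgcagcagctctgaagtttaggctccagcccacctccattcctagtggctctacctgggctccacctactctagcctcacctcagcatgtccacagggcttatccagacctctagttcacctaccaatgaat
Grem1: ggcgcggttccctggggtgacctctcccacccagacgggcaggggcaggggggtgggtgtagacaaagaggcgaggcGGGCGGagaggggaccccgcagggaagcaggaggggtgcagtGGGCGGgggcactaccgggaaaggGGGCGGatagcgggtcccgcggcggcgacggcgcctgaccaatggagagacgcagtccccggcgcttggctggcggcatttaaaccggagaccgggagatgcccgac
The Aqp2 window held TGACG at -211, AGATAA at -202 and TGTTCT at -179 from the start, all on the minus strand of the window. Car15 held TGACG at -238, and Grem1 held GGGCGG at -173, -131 and -107. Over all 32851 windows of this length in the table, 17.8% held TGACG, 9.99% AGATAA, 16.1% TGTTCT, 12.4% TATAAA and 32.7% GGGCGG. None of these motifs was found in all 3 windows, and a match describes letters only. None of the 3 windows overlapped a differentially methylated region in the authors' deposited table.

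Wild type replicates 1 and 2 gave 38 and 60 Calb1 cells, and Gulo-/- replicates 1 and 2 gave 41 and 488, so 529 of the 627 cells were Gulo-/-. The summed UMIs of these cells were 162916, 363004, 196921 and 3713363 in the same order. Their median mitochondrial share was 15.8%, 37.8%, 28.0% and 22.0%, which overlaps between the genotypes. Counts of the X-inactivation gene and of a Y-linked gene marked as female the first wild type and the second Gulo-/- library, and the remaining 2 as male. Wild type replicate 2 shared 986 barcodes with wild type replicate 1, and its copies of these, 11 Calb1 cells among them, were left out; with them kept, 39 genes were called between genotypes. The 817 of them that passed the cell filters carried 2098 Xist and 7 Ddx3y UMIs in an otherwise male library. Gulo itself gave 0 and 1 UMIs in the kept wild type cells and 0 and 2 in the kept Gulo-/- cells, so it could not check the genotype labels.

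The label was compared with marker genes. In descending order of their excess over all other kept cells, the leading genes were Calb1, S100g, Pgam2, Clu, Klk1, Tmem52b, Ltc4s, Hsd11b2, Kcne1 and Defb1. Of the first 30 leading genes, 26 are listed for the cluster named DCT2 in the authors' deposited table. Of the first 10, 7 are listed, and S100g, Klk1 and Ltc4s are not. In that table Calb1 had a natural log ratio of 2.59 in DCT2 and was detected in a fraction of 0.949 of its cells. The table comes from the same series, so it is not an independent check. Calb1 leads because the cells were chosen by it. S100g was abundant, at 55832 and 29002 counts per 1000000 UMIs of the class (CPM) in the wild type libraries, against 66260 and 37037 CPM in the Gulo-/- ones. Slc8a1, the exchanger that also defines the segment, was sparse, with 2 and 1 UMIs in wild type and 5 and 65 in Gulo-/-. That is below the filter for testing. It stood at 12.3 and 2.75 CPM in wild type and 25.4 and 17.5 CPM in Gulo-/-. All other kept cells held 0 and 0.127 CPM of Slc8a1 in wild type and 0.952 and 1.19 CPM in Gulo-/-. Markers of neighbouring segments were present: the 8 principal cell markers, Aqp2 among them, summed to between 3656 and 9233 CPM over the 4 libraries, the 6 early distal ones to 798 to 2893 CPM, and the 7 thick limb ones to 85.9 to 1317 CPM. The 14 proximal markers summed to 1221 to 7080 CPM. The 10 intercalated markers summed to 6.14 and 388 CPM for wild type and 741 and 691 CPM for Gulo-/-, with no overlap, and Atp6v1g3, a proton pump subunit, was detected in 56.8% of Calb1 cells of Gulo-/- replicate 2. Endothelial markers summed to 63.4 to 307 CPM, erythroid ones to 38.0 to 364 CPM, and macrophage ones to 6.14 to 195 CPM. Stromal markers reached 15.2 CPM and those of T and NK cells 6.73 CPM, with Cd3e, Cd3g, Col1a1 and Col1a2 at 0 throughout. An alternative chosen after seeing the data left out Calb1 cells with at least 0.2% intercalated or 1% proximal marker UMIs (Gpx3 not counted). It called 8 genes between genotypes, against 7 with all Calb1 cells. Cells with less of this RNA stayed in. Kap, a proximal marker, was detected in 100% of the Calb1 cells of wild type replicate 2. The part of the other cell types was not tested.

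Calb1 cells made up 2.38% of kept cells in wild type replicate 1 (exact 95% interval 1.69 to 3.26%) and 0.796% in wild type replicate 2 (0.608 to 1.02%). They made up 2.18% in Gulo-/- replicate 1 (1.57 to 2.95%) and 3.50% in Gulo-/- replicate 2 (3.20 to 3.81%). The groups overlapped, because wild type replicate 1 was above Gulo-/- replicate 1. The means were 1.59% ± 1.12 (SD, n = 2) and 2.84% ± 0.927 (SD, n = 2), with an exact two-sided permutation p of 0.667, where the 6 splits allow no p below 0.33. With Calb1 at 0.5% of UMIs the difference turned, to 0.918% in wild type and 0.797% in Gulo-/-. Proximal cells differed far more between libraries, with 1212 and 6154 cells in the wild type libraries against 334 and 1010 in the Gulo-/- ones, and a share depends on the other cells recovered. Intervals cover counting error only.

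Cells lay close to the limit on Calb1. Between 0.2 and 0.3% of UMIs stood 6, 16, 13 and 224 of the cells in wild type replicates 1 and 2 and Gulo-/- replicates 1 and 2, and 5, 59, 35 and 545 cells fell just outside, between 0.1 and 0.2%.

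The Calb1 cells split by the genes of the neighbouring segments. Taking at least 0.2% of UMIs and 4 UMIs as high, 109 cells were high in Slc12a3, 253 were high in Aqp2, 265 were high in neither, and 0 of 627 were high in both. Of the Calb1 cells, 2.63% and 18.3% were Slc12a3-high in the wild type libraries, against 19.5% and 18.2% in the Gulo-/- ones. Wild type replicate 1, with 1 such cell, stood apart from the other 3. Aqp2-high cells were 28.9% and 13.3% of the wild type and 34.1% and 45.1% of the Gulo-/- Calb1 cells, higher in both Gulo-/- libraries than in either wild type one.

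**Figure D1:**
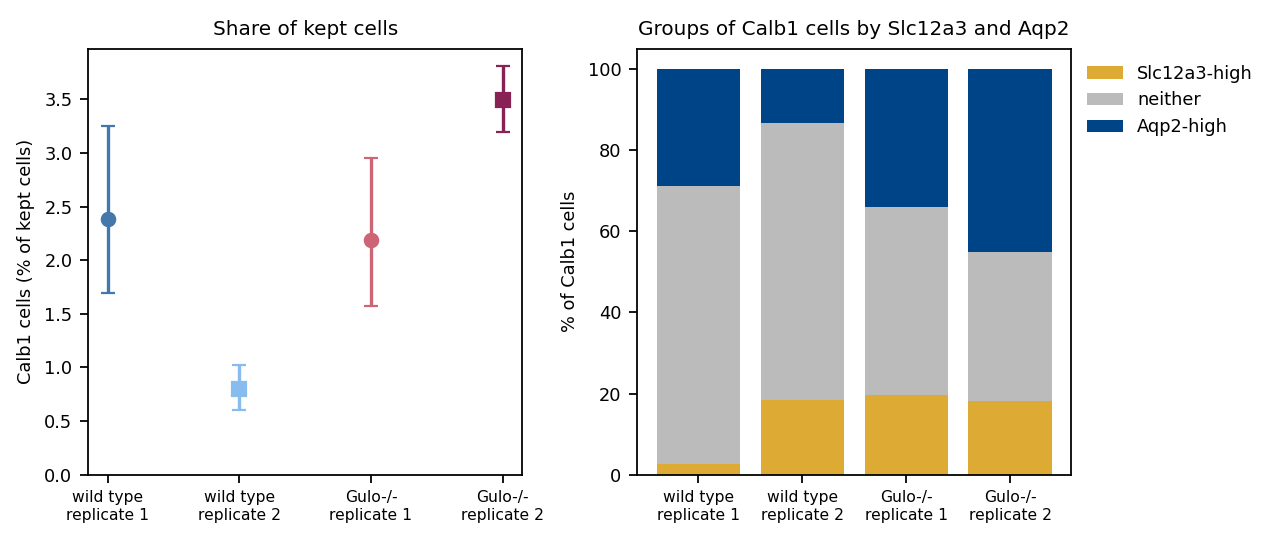
Left, Calb1 cells as a percentage of kept cells in each of the 4 libraries, with exact 95% intervals. Right, the percentage of Calb1 cells that were Slc12a3-high, Aqp2-high or neither; the Aqp2-high share was 28.9% and 13.3% for wild type, against 34.1% and 45.1% for Gulo-/-.

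Thinned to 1000 UMIs per cell, which left out no cell, 57.8% and 19.7% of wild type and 51.8% and 58.3% of Gulo-/- Calb1 cells had an Aqp2 UMI. Unthinned, these shares were 73.7%, 33.3%, 68.3% and 84.2%. Proximal cells, which should lack Aqp2, had thinned shares of 0.216% and 1.91% (wild type) and 6.83% and 20.4% (Gulo-/-), at median depths of 4100, 5224, 3991 and 3257 UMIs against 3075, 5755, 4754 and 7264 in Calb1 cells. The thinned Slc12a3 shares were 5.86% and 39.2% for wild type and 31.6% and 28.6% for Gulo-/- libraries, against 7.89%, 55.0%, 39.0% and 52.3% unthinned. In proximal cells the thinned Slc12a3 shares were 0.0695%, 1.26%, 1.45% and 5.52%. The exact two-sided permutation p was 0.667 for Aqp2 and 1 for Slc12a3, with 2 libraries per genotype.

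Along these groups the transport genes differed in order, described here without a test because the same cells define the groups. Wild type replicate 1 has too few Slc12a3-high cells for a level. Trpm6, the magnesium channel, stood in Slc12a3-high cells at 60.4 CPM in wild type replicate 2 and at 160 and 93.5 CPM in Gulo-/- replicates 1 and 2. In Aqp2-high cells it stood at 0 CPM in wild type replicate 2 and at 0 and 3.96 CPM in the Gulo-/- libraries. Wnk1, a kinase that controls the salt cotransporter, was lower along the same line, with 3393, 2239 and 2197 CPM in Slc12a3-high and 27.9, 322 and 372 CPM in Aqp2-high cells of those 3 libraries. Fxyd2, the gamma subunit of the sodium pump, did likewise, at 11687, 8131 and 9803 CPM against 2022, 1522 and 1821 CPM.

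In cells high in neither gene S100g and Klk1 were at their highest, while other calcium genes were not. S100g was highest there in all 4 libraries, at 61797 and 43458 CPM in wild type and 82636 and 49326 CPM in Gulo-/-. Klk1, which encodes tissue kallikrein, was also highest there, at 18221 and 18786 CPM in wild type and 9526 and 16588 CPM in Gulo-/-. In Aqp2-high cells Klk1 stood at 4542 and 362 CPM in wild type and 2012 and 3767 CPM in Gulo-/-, below every value in the neither group. Calb1 itself was higher in Slc12a3-high than in neither cells of the 3 libraries with a level (5844, 5172 and 5054 CPM against 5320, 4873 and 4215 CPM). Trpv5 had no common order, at 54.8, 76.8, 134 and 60.9 CPM in neither and 107, 13.9, 38.7 and 84.7 CPM in Aqp2-high cells of wild type replicates 1 and 2 and Gulo-/- replicates 1 and 2.

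Hsd11b2 and the water genes Aqp3 and Avpr2 were highest in Aqp2-high cells. Hsd11b2 stood at 6554 and 3974 CPM there in wild type and 3405 and 2858 CPM in Gulo-/-. In cells high in neither gene it stood at 2772 and 844 CPM in wild type and 1551 and 948 CPM in Gulo-/-. It stood at 12.1, 107 and 99.0 CPM in the Slc12a3-high cells of the 3 libraries with a level. Aqp3, the basolateral water channel, stood at 1494, 1492, 2012 and 1837 CPM in Aqp2-high cells and at 0, 26.7 and 40.3 CPM in Slc12a3-high cells. Avpr2, the vasopressin receptor, was 351 and 460 CPM in wild type and 219 and 165 CPM in Gulo-/- Aqp2-high cells. Fxyd4, another regulator of the sodium pump, was 1722 and 2858 CPM in wild type and 748 and 682 CPM in Gulo-/- Aqp2-high cells. These wild type levels rest on 11 and 8 cells, with 23 and 33 UMIs for Avpr2. The share of all genes that do not overlap between genotypes in Aqp2-high cells was not computed. Scnn1a, the alpha subunit of ENaC, showed no such order, at 145, 347 and 185 CPM in Slc12a3-high and 223, 348 and 182 CPM in Aqp2-high cells of the same libraries.

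**Figure D2:**
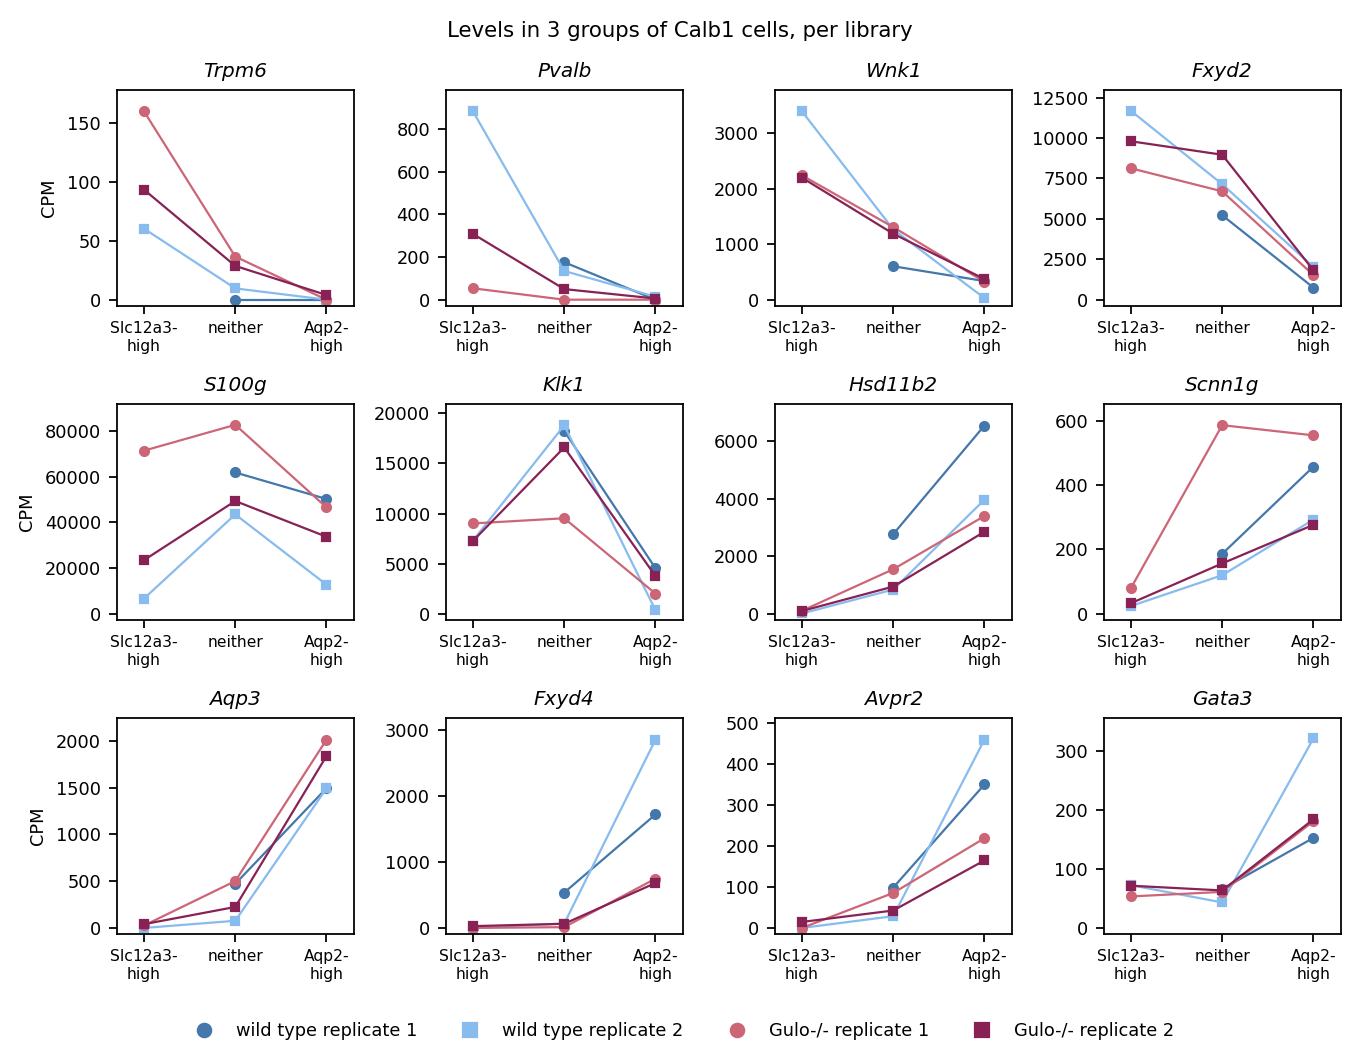
Levels of 12 genes (counts per 1000000 UMIs) in Slc12a3-high, neither and Aqp2-high Calb1 cells, 1 line per library; groups of under 5 cells are left out. Trpm6, Wnk1 and Fxyd2 were lowest in Aqp2-high cells, S100g and Klk1 highest in the neither group, and Hsd11b2, Aqp3 and Avpr2 highest in Aqp2-high cells.

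Between the genotypes, counts summed over the Calb1 cells of each library were compared with edgeR's quasi-likelihood test over 3303 genes. It called 7 genes at an adjusted p under 0.05, which is 0.212% of those tested. Grem1, Car15, Rbm3 and Aqp2, or 0.121%, were higher in Gulo-/-, and Gatm, Keg1 and Gchfr, or 0.0908%, were lower. At an unadjusted p under 0.05 there were 312 genes, and the median log2 difference over all genes was 0.01. Without Gulo-/- replicate 2, or without the Aqp2-high cells, edgeR called 0 genes, with 276 and 159 genes at an unadjusted p under 0.05 (DESeq2, run on all cells only, called 4). Without wild type replicates 1 or 2, or Gulo-/- replicate 1, edgeR called 84, 56 and 49. DESeq2 did not call Grem1, Car15 or Gchfr (adjusted p = 0.129, 0.158 and 0.0727), and over all alternatives the adjusted p of these genes reached 0.286, 0.414 and 0.419, with lowest values of 1.68e-07, 4.74e-06 and 1.98e-06. For Rbm3, Gatm and Keg1 it reached 0.616, 0.583 and 0.509, with lowest values of 3.53e-09, 1.07e-08 and 2.42e-18, and the call was lost in 5 of 19, 6 of 18 and 5 of 17 alternatives. With cells of over 25% mitochondrial UMIs left out, edgeR called Rbm3 alone.

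Grem1 encodes gremlin-1, a secreted antagonist of bone morphogenetic proteins. It gave 0 and 1 UMIs in wild type and 23 and 257 in Gulo-/- Calb1 cells, or 0 and 2.75 CPM against 117 and 69.2 CPM. Both Gulo-/- libraries were above both wild type ones, with a log2 difference of 5.33 ± 0.85 (SE; edgeR adjusted p = 0.00476). The ratio of pooled counts was 37.7, with an exact counting interval of 6.70 to 1493, since wild type rests on 1 UMI. Of the Grem1 UMIs, 22 of 23 and 254 of 257 lay in Aqp2-high cells of Gulo-/- replicates 1 and 2. In Aqp2-high cells Grem1 stood at 0 and 13.9 CPM in wild type (11 and 8 cells) and 284 and 126 CPM in Gulo-/- (14 and 220 cells). The pooled ratio covers all Calb1 cells, and the part of the larger Aqp2-high share in it was not tested. Principal cells outside the Calb1 rule held 0 Grem1 UMIs in wild type (2 and 37 cells) and 240 and 190 CPM in Gulo-/- (117 and 1112 cells), and endothelial cells held 0 CPM in 3 libraries and 4.16 CPM in Gulo-/- replicate 2.

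Car15, a membrane-anchored carbonic anhydrase, had a pattern like that of Grem1. It stood at 0 and 2.75 CPM in wild type and 86.3 and 66.5 CPM in Gulo-/-, with no overlap, and differed by 5.09 ± 0.82 on the log2 scale (SE; edgeR adjusted p = 0.00476). The ratio of pooled counts was 35.5, with a counting interval of 6.32 to 1408. Aqp2-high cells held 13 of its 17 UMIs in Gulo-/- replicate 1 and 212 of 247 in replicate 2. The pooled ratio again covers all Calb1 cells, and the part of the larger Aqp2-high share in it was not tested. In Aqp2-high cells Car15 stood at 0 and 13.9 CPM in wild type and 168 and 105 CPM in Gulo-/-. In principal cells of wild type replicate 2 it stood at 10.5 CPM, against 690 and 248 CPM in Gulo-/-. In thick limb cells it stood at 105 and 20.03 CPM in wild type and 258 and 87.0 CPM in Gulo-/-, where the genotypes overlapped.

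Aqp2 stood at 1884 and 1058 CPM in wild type and 3519 and 5373 CPM in Gulo-/- Calb1 cells, with a log2 difference of 1.62 ± 0.28 (SE; edgeR adjusted p = 0.00779). Both Gulo-/- libraries were above both wild type ones. Aqp2 in cells that should lack it moved the same way: endothelial cells held 0 and 19.997 CPM in wild type and 123 and 333 CPM in Gulo-/-. The part of such RNA and of the larger Aqp2-high share in the difference was not tested. Over the 17 alternatives that do not choose cells by Aqp2 the log2 difference ran from 1.39 to 1.90, and 4 of them lost the call (edgeR adjusted p from 0.000123 to 0.974).

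Rbm3, an RNA-binding protein known to be induced by cold, stood at 36.8 and 77.1 CPM in wild type and 320 and 373 CPM in Gulo-/- Calb1 cells. The genotypes did not overlap, and the log2 difference was 2.44 ± 0.39 (SE; edgeR adjusted p = 0.00476). It was detected in 13.2% and 31.7% of wild type and 75.6% and 86.3% of Gulo-/- Calb1 cells. In cells high in neither gene it was 54.8 and 76.8 CPM in wild type and 269 and 350 CPM in Gulo-/-. Aqp2-high cells had 15.2 and 83.7 CPM in wild type, from 1 and 6 UMIs, and 387 and 408 CPM in Gulo-/-. Slc12a3-high cells had 72.4 CPM in wild type replicate 2, from 6 UMIs, and 293 and 291 CPM in Gulo-/-. Wild type replicate 1 gave no level in that group. Proximal cells had 102 and 65.2 CPM in wild type and 344 and 399 CPM in Gulo-/-, and endothelial cells 123 and 209 CPM against 410 and 602 CPM. The genotype difference in Calb1 cells exceeded that in early distal cells by 0.09 ± 0.63 and that in thick limb cells by 0.50 ± 0.41 on the log2 scale (SE; edgeR adjusted p = 0.9996 and 0.911).

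Gatm, which makes the creatine precursor guanidinoacetate, and Keg1, a glycine acyltransferase family member, are abundant in proximal tubule. Gatm stood at 117 and 193 CPM in wild type and 30.5 and 28.3 CPM in Gulo-/- Calb1 cells, a log2 difference of -2.58 ± 0.41 (SE; edgeR adjusted p = 0.00476). Keg1 stood at 98.2 and 245 CPM against 15.2 and 13.2 CPM, a log2 difference of -3.88 ± 0.53 (SE; edgeR adjusted p = 0.00476). Neither gene overlapped between genotypes. In proximal cells themselves Gatm stood at 3235 and 1408 CPM in wild type and 301 and 1133 CPM in Gulo-/-, and Keg1 at 1950 and 2113 CPM against 357 and 379 CPM, so both were lower in Gulo-/- there too, without a test. Endothelial cells held similar levels, with Gatm at 159 and 169 CPM in wild type and 43.6 and 71.4 CPM in Gulo-/-, and Keg1 at 95.7 and 353 CPM against 24.0 and 23.2 CPM. Over the 14 proximal markers the summed level in Calb1 cells was 1221 and 7080 CPM in wild type and 2966 and 1570 CPM in Gulo-/-. All 7 tested proximal markers had a negative log2 difference, and 1, Gatm, was called. The part of proximal RNA in these differences was not tested.

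Gchfr, the feedback regulator of the enzyme that starts tetrahydrobiopterin synthesis, stood at 196 and 71.6 CPM in wild type and 20.3 and 24.0 CPM in Gulo-/- Calb1 cells. The genotypes did not overlap, and the log2 difference was -2.46 ± 0.45 (SE; edgeR adjusted p = 0.0150). In proximal cells it stood at 107 and 149 CPM in wild type and 135 and 124 CPM in Gulo-/-. Endothelial cells held 43.8 and 111 CPM against 55.6 and 40.2 CPM, so the genotypes overlapped in both. Early distal cells overlapped too, at 0 (3 cells) and 19.4 CPM against 6.07 and 6.93 CPM. Thick limb cells did not, at 11.7 and 16.3 CPM, from 1 and 13 UMIs, against 0 and 7.31 CPM. Principal cells had 18.9 CPM in wild type replicate 2 and 10.1 and 13.99 CPM in Gulo-/-. The log2 difference in Calb1 cells minus that in early distal cells was -0.49 ± 0.94 (SE, edgeR adjusted p = 0.9996). Against thick limb cells it was -0.71 ± 0.68 (SE, edgeR adjusted p = 0.942).

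**Figure D3:**
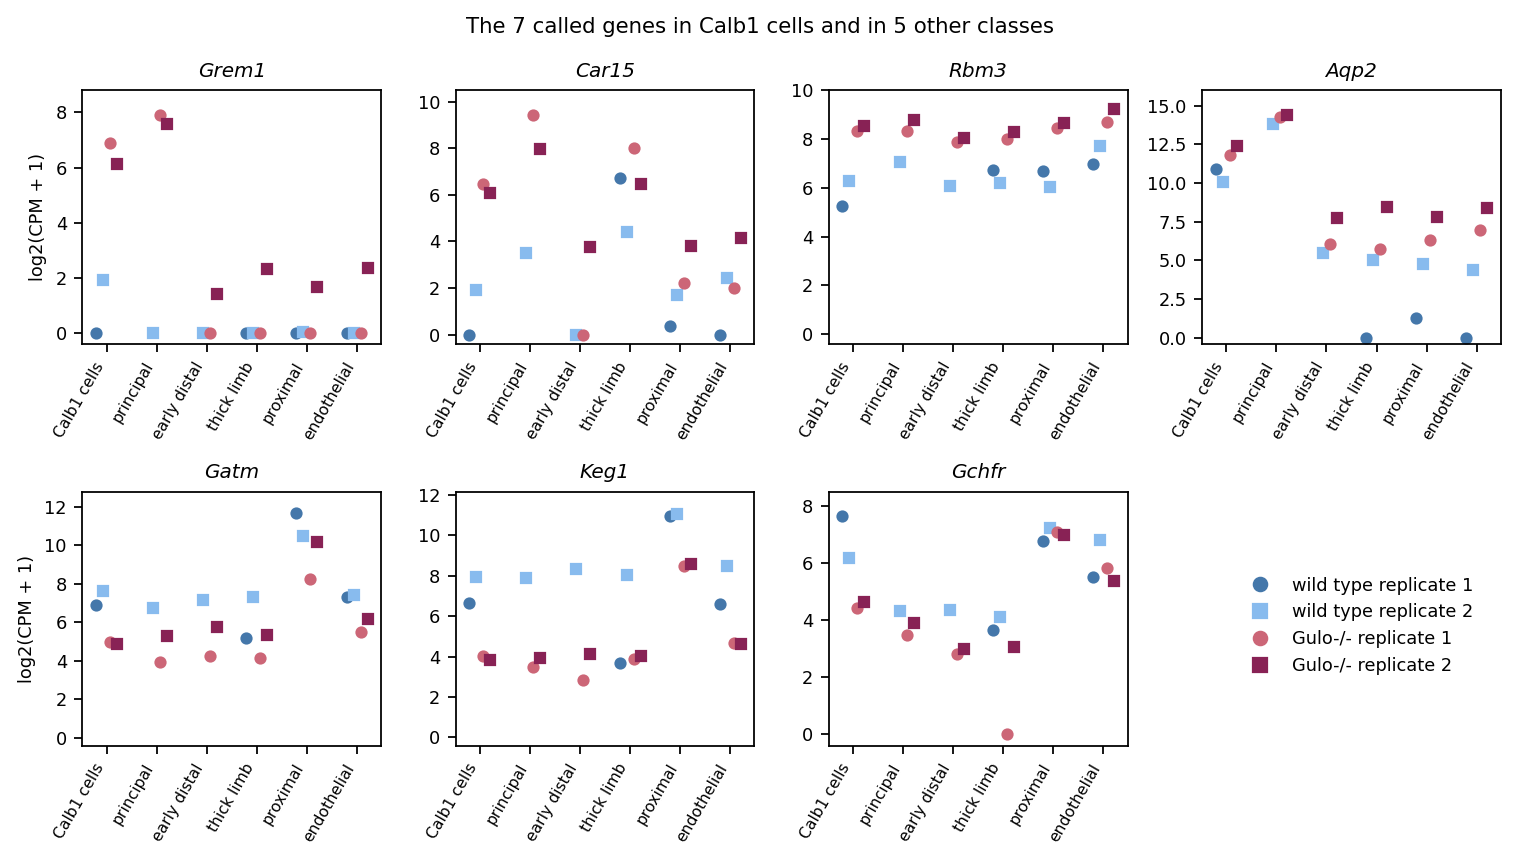
Levels of the 7 called genes as log2(CPM + 1) in Calb1 cells and 5 other classes, 1 point per library; classes with under 10 cells in a library are left out. Grem1 was high in Calb1 and principal cells of the 2 Gulo-/- libraries. In every class Rbm3 was higher in both Gulo-/- libraries than in each wild type library shown. For principal and early distal cells that is wild type replicate 2 alone.

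RefSeq GRCm38.p6 places the called genes at chr2:113748675-113758648 (Grem1), chr16:17835276-17838186 (Car15), chrX:8138975-8145880 (Rbm3), chr15:99579056-99584545 (Aqp2), chr2:122594473-122611277 (Gatm), chr19:12695790-12719902 (Keg1) and chr2:119167788-119172389 (Gchfr). The authors' deposited table of methylation regions of whole kidney assigns 6 regions to Gatm, 4 to Rbm3, 4 to Aqp2, 1 to Keg1 and 0 to Grem1, Car15 and Gchfr. It does not say which side of each comparison is which genotype, so no direction is given.

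The calcium genes that give these cells their character did not pass the test. Of 14 listed, 8 were tested, 0 were called by edgeR, and 7 had a positive log2 difference, with a median of 0.21 against 0.01 over all genes. Trpv5 stood at 73.7 and 57.9 CPM in wild type and 81.3 and 70.6 CPM in Gulo-/-, overlapping. Kl, which encodes the FGF23 co-receptor klotho, stood at 1062 and 1080 CPM in wild type and 1488 and 1107 CPM in Gulo-/-. The calcium pump gene Atp2b4 was 49.1 and 55.1 CPM against 127 and 78.9 CPM, not overlapping (log2 difference 0.79 ± 0.43, SE; edgeR adjusted p = 0.569). Klk1 was 13400 and 12526 CPM in wild type and 6470 and 8253 CPM in Gulo-/-, also not overlapping (log2 difference -0.83 ± 0.34, SE; edgeR adjusted p = 0.430). Non-overlap alone was common, as 22.3% of all tested genes were higher and 14.9% lower in both Gulo-/- libraries.

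The sodium channel and aldosterone genes did not pass either, with 0 of 8 tested called and a median log2 difference of -0.02. Scnn1g, the gamma subunit of ENaC, stood at 295 and 132 CPM in wild type and 477 and 204 CPM in Gulo-/-. Hsd11b2 ranged from 1273 to 4192 CPM in wild type and stood at 2006 and 1861 CPM in Gulo-/-. In both, the genotypes overlapped.

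Of the salt cotransport genes, 0 of 10 tested were called. Slc12a3 was 123 and 953 CPM in wild type and 934 and 612 CPM in Gulo-/-, and wild type replicate 1 was low. Of the potassium channel genes 0 of 5 tested were called, and Kcnj1 (ROMK) was 510 and 380 CPM in wild type and 340 and 416 CPM in Gulo-/-. For magnesium, 0 of 5 tested were called, and 4 had a negative log2 difference. Of the sodium pump genes 0 of 5 tested were called, with Fxyd4 at 994 and 603 CPM in wild type and 300 and 395 CPM in Gulo-/- (log2 difference -1.17 ± 0.28, SE; edgeR adjusted p = 0.0964). Of the water genes 1 of 3 tested, Aqp2, was called; of the claudins, 0 of 4.

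The transcription factors of the segment also gave 0 called of 11 tested, with 8 positive log2 differences and a median of 0.31. Hoxd8 stood at 288 and 267 CPM in wild type and 599 and 522 CPM in Gulo-/-, not overlapping (edgeR adjusted p = 0.213). Tfcp2l1, a distal nephron factor, was 387 and 303 CPM against 472 and 456 CPM.

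**Figure D4:**
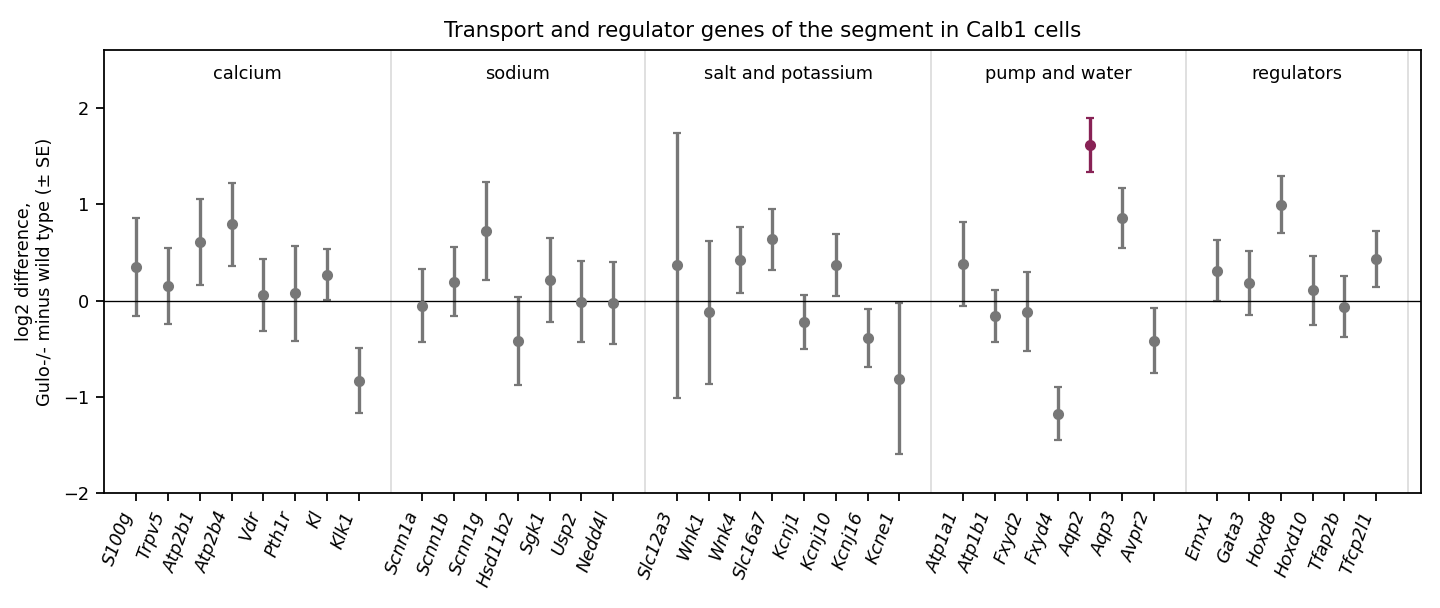
Log2 difference, Gulo-/- minus wild type, with its standard error for tested genes of calcium, sodium, salt, potassium, pump and water transport and for 6 transcription factors in Calb1 cells (2 libraries per genotype). Aqp2, at 1.62, is the gene shown that passed the test.

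In the other gene groups 0 genes were called by edgeR. Of all 3303 tested genes, 1683 had a positive log2 difference. Of 23 nuclear genes of oxidative phosphorylation, all tested, 20 had a negative log2 difference, with a median of -0.32. Cycs (cytochrome c) stood at 1952 and 1259 CPM in wild type and 757 and 1164 CPM in Gulo-/- (log2 difference -0.73 ± 0.25, SE; edgeR adjusted p = 0.335). Of 17 tested antioxidant genes, 15 were negative, with a median of -0.36. Gpx1 (glutathione peroxidase) stood at 632 and 846 CPM in wild type and 386 and 421 CPM in Gulo-/-, and Sod2 (mitochondrial superoxide dismutase) at 675 and 452 CPM against 244 and 366 CPM. Proximal cells held Gpx1 at 6625 and 4609 CPM in wild type and 3047 and 2683 CPM in Gulo-/-. The tested proximal markers had the same sign as most genes of both lists in Calb1 cells, with 7 of 7 negative and a median of -1.59, and their part in these lists was not tested. Of 6 tested ascorbate-related genes, 5 were positive, and P4hb, a subunit of prolyl 4-hydroxylase, was 129 and 68.9 CPM against 168 and 124 CPM.

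Of the injury markers 5 were tested. Spp1 (osteopontin) stood at 3542 and 2322 CPM in wild type and 5144 and 6550 CPM in Gulo-/- (log2 difference 1.01 ± 0.28, SE; edgeR adjusted p = 0.162). Clu (clusterin) overlapped, at 1363 and 2366 CPM against 1427 and 933 CPM. Of 10 tested immediate early genes 7 were positive. Klf2, a transcription factor, stood at 6.14 and 5.51 CPM in wild type and 50.8 and 48.5 CPM in Gulo-/- (ratio of pooled counts 8.52, counting interval 2.87 to 41.7; edgeR adjusted p = 0.109). Proximal cells held Klf2 at 3.85 and 7.83 CPM in wild type and 41.6 and 48.5 CPM in Gulo-/-. Endothelial cells held it at 2347 and 1622 CPM in wild type and 3143 and 2273 CPM in Gulo-/-. The part of RNA from other cells in Klf2 was not tested. Of the heat shock, glycolysis and cholesterol lists, 10, 14 and 3 genes were tested. No interferon gene passed the filter on low counts.

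The genotype difference in Calb1 cells was set against that in early distal cells (Slc12a3-high cells outside the Calb1 rule) and in thick limb cells, in a model with library and class. Against early distal cells 3 of 3293 genes were called, or 0.0911%. Wild type replicate 1 had only 3 early distal cells. Without either Gulo-/- library 0 genes were called by edgeR (35 and 63 at an unadjusted p under 0.05), and without wild type replicates 1 and 2 in turn 29 and 139. S100g was 184 and 221 CPM in wild type and 2483 and 1440 CPM in Gulo-/- early distal cells, against 55832, 29002, 66260 and 37037 CPM in Calb1 cells. Its difference of differences, Calb1 minus early distal, was -2.70 ± 0.53 (SE; edgeR adjusted p = 0.00104). Over 15 alternatives it ran from -4.20 (without wild type replicate 2) to -0.22 (Calb1 limit of 0.5%), and 4 of them lost the call. S100g in proximal cells was 222 and 229 CPM in wild type and 602 and 831 CPM in Gulo-/-. Thick limb cells had 268 and 223 CPM against 497 and 686 CPM, and endothelial cells 276 and 231 CPM against 485 and 892 CPM. Principal cells had 149 CPM in wild type replicate 2 against 4492 and 6980 CPM in Gulo-/-. The higher level in Gulo-/- was thus not limited to early distal cells. The part of RNA from other cells was not tested. Atp4a, the gastric-type proton pump subunit, was 104 and 82.6 CPM in wild type and 96.5 and 154 CPM in Gulo-/- Calb1 cells. In early distal cells it was 368 and 147 CPM in wild type and 48.6 and 54.6 CPM in Gulo-/-, a difference of differences of 2.38 ± 0.48 (SE; edgeR adjusted p = 0.00104). Over 15 alternatives this value ran from 0.90 to 3.03, and 7 lost the call.

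Against thick limb cells 28 of 4864 genes were called, or 0.576%, 6 with a more positive and 22 with a more negative genotype difference in Calb1 cells. Wild type replicate 1 had 17 thick limb cells. Without wild type replicates 1 and 2 in turn 46 and 54 genes were called, and without Gulo-/- replicates 1 and 2 it was 14 and 5. Atp4a was again more positive, by 2.74 ± 0.41 (SE; edgeR adjusted p = 1.60e-05), with a range of 1.13 to 3.43 over 16 alternatives, of which 5 lost the call. Defb1, which encodes a tubular antimicrobial peptide, was 5807 and 3397 CPM in wild type and 2097 and 2145 CPM in Gulo-/- Calb1 cells. In thick limb cells it was 408 and 367 CPM in wild type and 730 and 679 CPM in Gulo-/-, and the difference of differences was -1.86 ± 0.21 (SE; edgeR adjusted p = 6.20e-09). In early distal cells Defb1 was lower in Gulo-/-, as in Calb1 cells, at 3251 and 2940 CPM against 2155 and 1806 CPM. Slc12a3 and Pvalb had values of -6.30 ± 0.41 and -6.49 ± 0.68 (SE, edgeR adjusted p = 2.90e-17 and 1.60e-09). Wild type thick limb cells held 0 and 5 Slc12a3 UMIs and 0 and 2 Pvalb UMIs. Gulo-/- thick limb cells held Slc12a3 at 483 and 293 CPM and Pvalb at 27.7 and 44.5 CPM. In Calb1 cells Slc12a3 overlapped between genotypes, at 123 and 953 CPM in wild type and 934 and 612 CPM in Gulo-/-. Pvalb in Calb1 cells was 98.2 and 281 CPM against 10.2 and 63.6 CPM. In early distal cells Pvalb was also lower in Gulo-/-, at 981 and 538 CPM against 225 and 282 CPM. The first of these values rests on 3 cells. The part of Slc12a3-bearing cells in the thick limb class was not tested. The immediate early gene Junb stood at 135 and 171 CPM in wild type and 86.3 and 199 CPM in Gulo-/- Calb1 cells, and at 69.9 and 63.9 CPM against 178 and 329 CPM in thick limb cells (-2.15 ± 0.37, SE; edgeR adjusted p = 0.000248). Over 16 alternatives the Junb value ran from -3.32 to 0.18, and 5 lost the call or turned.

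**Figure D5:**
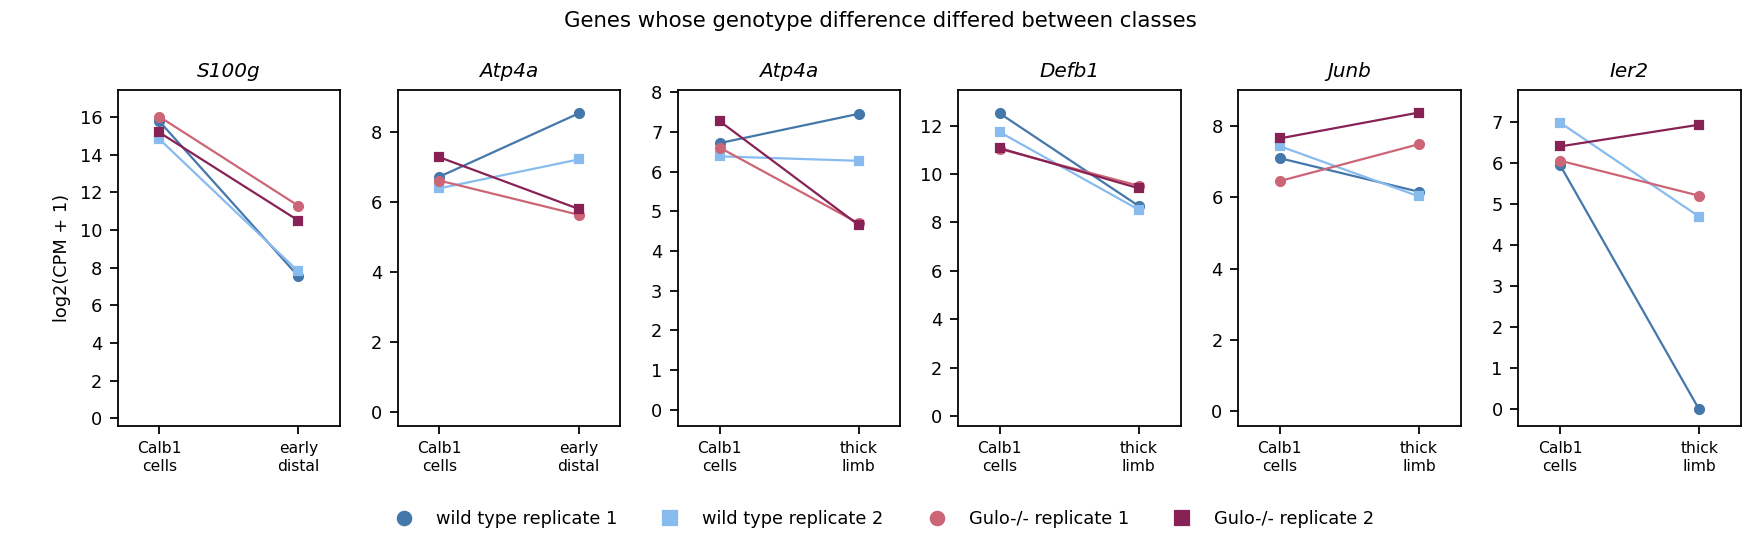
Levels as log2(CPM + 1) in Calb1 cells and in early distal or thick limb cells, 1 line per library, for genes whose genotype difference differed between the classes. Atp4a was lower in both Gulo-/- libraries than in both wild type ones in early distal and thick limb cells, while the Calb1 cells overlapped.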

How the data were processed

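Per the labels, the series holds 16 samples in 8 groups, of which the 4 single-cell libraries were used. MeRIP and bulk RNA samples were not analysed here. The authors deposited UMI counts for 27998 genes; the build mm10 and Seurat 2.3.4 come from the submitters' processing notes, while the aligner and the counting tool are not given in the sources used here. A cluster table deposited by the authors gives natural log ratios, p-values and the fraction of cells detected, and their methylation table gives differences per region.

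Cells with at least 500 UMIs, 200 genes and at most 50% mitochondrial UMIs were kept, without removing doublets. The counts of each class were added up within a library and tested with edgeR 4.0.16 (TMM, filterByExpr, quasi-likelihood, Benjamini-Hochberg), checked on simulated data; DESeq2 1.42.0 was an alternative. CPM are counts per 1000000 UMIs of the class. Proximal cells had at least 1% proximal marker UMIs, endothelial cells 0.5% and principal cells 0.5% Aqp2. Members and gene lists were chosen with earlier results of these data known. Named genes were called genes, the 6 most abundant of each transport list and the 3 of lowest p of each other list; other genes were chosen after their values were seen. Called genes of the class comparisons were limited to 6 per direction by p. Values of 1 named gene are not reported here.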

Additional observations from a re-analysis of the deposited data

Results flagged for a closer look

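The genotype difference of the genes below differed between Calb1 cells and early distal or thick limb cells, by a test of the difference itself. Values are log2, Calb1 cells minus the other class, from edgeR's quasi-likelihood test. Against early distal cells they were 2.38 for Atp4a, -2.70 for S100g and -3.23 for Ier2, and wild type replicate 1 held 0 Ier2 UMIs in its 3 early distal cells. Against thick limb cells the more positive ones were 2.74 for Atp4a, 1.14 for Sostdc1, 4.02 for Mme, 1.88 for Apoe, 0.97 for Ctsd and 0.87 for Ivns1abp. The more negative ones were -6.30 for Slc12a3, -6.49 for Pvalb, -1.86 for Defb1, -2.82 for Fxyd4, -2.15 for Junb and -2.86 for Ier2. Mme rests on 0 and 2 UMIs in wild type Calb1 cells, and Fxyd4 on 0 and 10 UMIs in wild type thick limb cells. Many of these calls were lost under other processing: against thick limb cells Ivns1abp in 13 of 16 alternatives, Ctsd in 11 of 16 and Apoe in 8 of 16, and against early distal cells Ier2 in 8 of 13, Atp4a in 7 of 15 and S100g in 4 of 15. Against thick limb cells Defb1 kept its call in 16 of 16, Slc12a3 in 15 of 16 and Pvalb in 14 of 15. The other calls there were lost in 4 or 5 of 15 or 16 alternatives, Junb with 1 more that turned its sign. No alternative changed the marker limit that defines thick limb cells. These counts therefore cannot show how far the calls depend on that limit.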

How the results depend on the processing

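The 7 called genes kept their direction under every alternative that gave a value, except Aqp2 (-0.12) without the Calb1 cells with Aqp2 at 0.2% of UMIs, which removes cells by Aqp2 itself and so is no test of that gene. The count of 7 became 0 without those cells, 0 without Calb1 cells with any Aqp2 UMI, 26 and 0 with Calb1 limits of 0.1 and 0.5%, 1 with a mitochondrial limit of 25%, 39 with shared barcodes kept, 76 with no filter on low counts, 4 with DESeq2 and 79 with the sex of the library as a term. With the replicate block it was 0. Same-numbered libraries did not deviate together (r = -0.04 across 3303 genes), so the numbers do not show a pairing. Leaving out 1 library gave 0 (without Gulo-/- replicate 2) to 84 (without wild type replicate 1), with 56 without wild type replicate 2 and 49 without Gulo-/- replicate 1; the lone sample is assumed to vary like the other genotype.

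The 3 genes that differed from early distal cells became 1 without the Aqp2-high cells, 6 and 0 with Calb1 limits of 0.1 and 0.5%, 5 without Calb1 cells carrying intercalated or proximal RNA (chosen after seeing the data), 0 with no filter and 0 to 139 without 1 library, the highest without wild type replicate 2. With a mitochondrial limit of 25% it could not be fitted, since wild type replicate 1 then had no early distal cell. The 28 genes that differed from thick limb cells became 11 without cells with any Aqp2 UMI, 8 without Aqp2-high cells, 52 and 6 with Calb1 limits of 0.1 and 0.5%, 10 at 25% mitochondrial, 15 with at least 2000 UMIs, 18 with no filter and 5 to 54 without 1 library. Junb turned to 0.18 without cells with any Aqp2 UMI. The cause of these changes was not tested.

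The share of Calb1 cells, Gulo-/- minus wild type, turned to -0.12 points at a Calb1 limit of 0.5%, and was 0.457 to 2.04 points without 1 library. The thinned Aqp2 share differed by -2.75 to 35.3 points and the Slc12a3 share by -9.04 to 24.3 points without 1 library. Of 1292 values of the other named genes, 124 moved by more than the spread between replicates. Precision is limited by 98 wild type cells.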
